A study of Mus musculus with 2 samples.

Results

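The keratin-associated protein genes were taken as every gene of the deposited gene list whose symbol begins with Krtap, which gave 51 of 19465 genes. They are named in 26 numbered subfamilies. The GENCODE M21 gene annotation names 58 Krtap genes, so family and array sizes here count only the genes of the deposited list. Keratin-associated proteins are small matrix proteins of the hair shaft. They lie between the keratin filaments of the cortex and cuticle and link them, mostly through disulfide bonds of their many cysteines, while a glycine- and tyrosine-rich type holds few cysteines. Their genes have a single coding exon, lie in arrays of close copies and are switched on late, in cells that are hardening into the shaft above the follicle bulb.

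The study placed implants in nude mice and sequenced sections of the regenerated tissue by spatial transcriptomics, a method that catches RNA on a slide in small barcoded areas, the spots, which can each cover several cells. A single library came from a flat implant and a single library from an implant with micropillars, a surface of small posts, and both were labelled bone, total RNA and fixed, paraffin-embedded slides. Both groups share the nude genotype, which is a loss of function of Foxn1, a transcription factor of the hair follicle and the thymus, and such mice grow hair shafts that do not form a normal coat. No source used here gives the age, the sex or the number of mice, and the study's title asks about nuclear shape, secreted factors and bone regeneration rather than hair.

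The values are counts of UMIs, barcodes that mark single captured molecules. After spots under 100 UMIs were dropped there were 2681 flat spots with 2263345 UMIs and a median of 602, and 3064 micropillar spots with 3173632 UMIs and a median of 831. Bone genes were measured (Col1a1 had 1783 and 2939 UMIs), but spots with neural genes were the commonest group in both libraries. A single micropillar spot held 19053 UMIs against 7720 in the next, and it had inner root sheath genes. The libraries share 1709 spot barcodes, which are positions on the grid. Of these, 70 had a Krtap UMI in the flat library, 138 in the micropillar library and 7 in both. With 1 library per implant no test was made, no p-value is given and no difference has a replicate check. Intervals are 95% and cover counting error only.

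Stretches of coding sequence show how differently the detected members are built. Each is the run of 20 codons that holds most codons of the kind named, from the GENCODE M21 transcripts, written 5′ to 3′. Capitals mark glycine or tyrosine codons in Krtap8-1, where codons 13 to 32 hold 12 of them, and cysteine codons in the others. Krtap17-1 holds 12 cysteine codons in codons 22 to 41, Krtap3-1 holds 6 in codons 46 to 65, and Krtap15 holds 2 in codons 57 to 76.
Krtap8-1: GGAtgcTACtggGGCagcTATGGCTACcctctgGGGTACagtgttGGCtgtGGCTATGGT
Krtap17-1: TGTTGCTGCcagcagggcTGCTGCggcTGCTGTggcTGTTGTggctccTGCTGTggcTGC
Krtap3-1: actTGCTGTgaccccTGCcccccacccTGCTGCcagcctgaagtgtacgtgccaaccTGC
Krtap15: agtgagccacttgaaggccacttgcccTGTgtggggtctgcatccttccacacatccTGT

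A total of 27 members had at least 1 UMI in either library and 24 had none. The 763 Krtap UMIs were held mostly by few genes. The 10 most abundant members had 27 UMIs or more and together held 92.7% of the UMIs, while the other 17 detected members had 1 to 6 UMIs each and 56 in all. For a member with no UMI, 3 counts set upper limits of 1.33 CPM (flat) and 0.945 CPM (micropillar), where CPM is the gene's UMIs out of 1000000 UMIs of its library. Of the detected members 20 were seen in both libraries, 6 in the micropillar library alone and 1, Krtap28-10, in the flat library alone with 1 UMI.

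**Figure D1:**
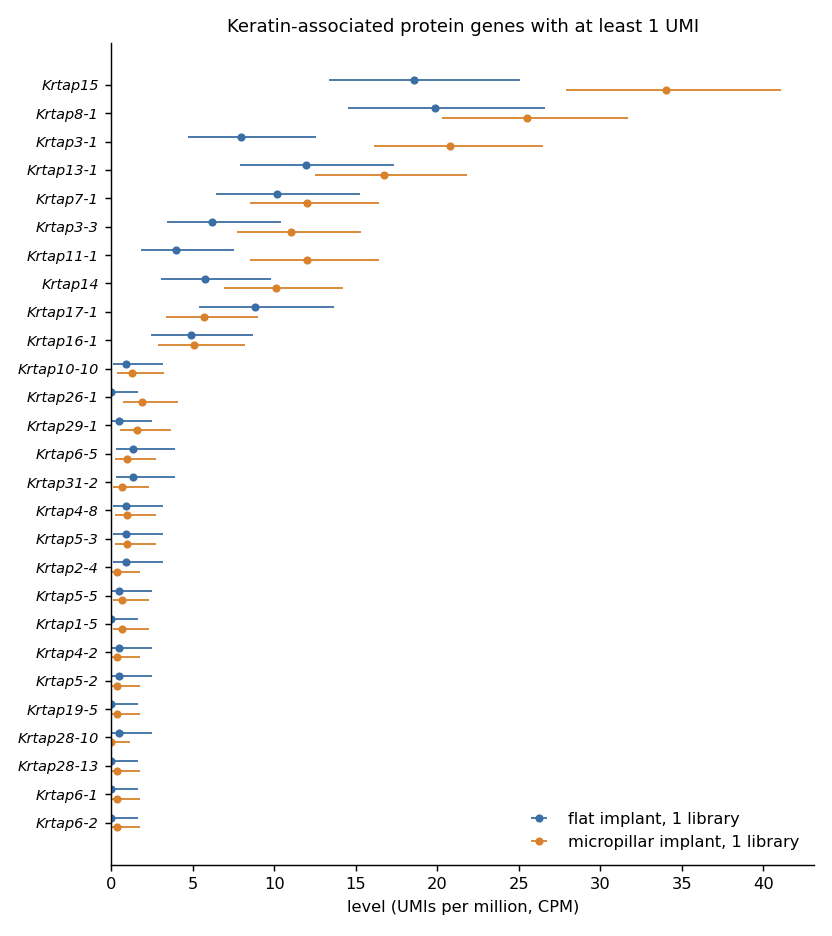
Level in CPM of the 27 members with at least 1 UMI, with exact 95% Poisson intervals, blue for the flat and orange for the micropillar library. Krtap15, Krtap8-1, Krtap3-1 and Krtap13-1 lead, and 17 members lie at 1 to 6 UMIs.

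Krtap15 had the most UMIs, 42 with the flat and 108 with the micropillar implant. Krtap8-1 followed with 45 and 81, Krtap3-1 with 18 and 66, and Krtap13-1 with 27 and 53. These 4 genes held 57.7% of all Krtap UMIs. Below them came Krtap7-1 with 23 and 38 UMIs, Krtap3-3 with 14 and 35, Krtap11-1 with 9 and 38, Krtap14 with 13 and 32, Krtap17-1 with 20 and 18, and Krtap16-1 with 11 and 16. Per kilobase of transcript, Krtap8-1 came first at 219.5 UMIs per kilobase over both libraries. Krtap15 had 176, Krtap3-1 139, Krtap13-1 107 and Krtap7-1 98.2 UMIs per kilobase, and Krtap16-1, the longest of the 10, had 14.3. The glycine- and tyrosine-rich gene of the sequences above led on this scale, and Krtap15 led in UMIs. Whether UMIs scale with transcript length here was not tested, since the library chemistry and probe set are unknown.

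By subfamily number, most of the signal came from families with a single member in the gene list. Subfamily 15 held 19.7% of the UMIs, subfamily 3 held 17.4%, subfamily 8 held 16.5%, subfamily 13 held 10.5% and subfamily 7 held 7.99%. Subfamily 3, of which Krtap3-1 and Krtap3-3 were detected, had 32 and 101 UMIs. The large families had few UMIs at this depth. Subfamily 4 has 7 members and had 3 and 4 UMIs, subfamily 19 has 6 members and had 0 and 1, subfamily 6 has 4 members and had 3 and 5, and subfamily 5 has 4 members and had 4 and 6. The leading members there were Krtap4-8 with 2 and 3 UMIs, Krtap6-5 with 3 and 3, Krtap5-3 with 2 and 3, and Krtap19-5 with 0 and 1. Of the small subfamilies Krtap26-1 had 0 and 6 UMIs, Krtap10-10 had 2 and 4, Krtap29-1 had 1 and 5, Krtap31-2 had 3 and 2, Krtap2-4 had 2 and 1, and Krtap1-5 had 0 and 2. Subfamilies 9, 20, 21, 22, 24 and 27 had no UMI.

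Members were also put in the classes used for these proteins by the codons of their genes. At least 35% glycine plus tyrosine codons gave the high glycine-tyrosine class, otherwise over 30% cysteine codons gave the ultra-high sulfur class, and the rest were called high sulfur. The 18 high sulfur members held 74.0% of the UMIs, 163 flat and 402 micropillar. The 19 high glycine-tyrosine members had 52 and 92 UMIs, of which Krtap8-1 gave 126 of 144. The 14 ultra-high sulfur members had 26 and 28 UMIs, and Krtap17-1 gave 38 of these 54. The cut between classes is a rule and not a gap. Krtap17-1 with 34.9% glycine plus tyrosine codons lies just under the cut of 35%, and Krtap7-1 with 29.9% lies further below. Krtap7-1 and Krtap15, in the high sulfur class by default, have 9.2% and 4.0% cysteine codons. The order of the rule also put cysteine-rich members in the high glycine-tyrosine class. These were Krtap28-10 with 42.9%, Krtap28-13 with 42.8%, Krtap5-3 with 35.1% and Krtap5-2 with 34.6% cysteine codons.

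On the genome (mm10, GENCODE M21) the members lie in 5 groups, and within the larger arrays the UMIs came from short runs of genes. The array on chromosome 16, at chr16:88610705-89571183, has 24 members with 162 and 362 UMIs, 68.7% of the Krtap total. Its first 3 members, Krtap24-1, Krtap26-1 and Krtap27-1 at chr16:88610705-88671671, had 0, 6 and 0 UMIs. Next, Krtap13-1, Krtap14 and Krtap15, with the undetected Krtap13 between them, held 275 UMIs at chr16:88728862-88829844. Krtap8-1, Krtap7-1 and Krtap11-1 held 234 UMIs at the far end, chr16:89487379-89571183. The 14 members between these stretches, chr16:88868917-89420111, are all of the high glycine-tyrosine class and had 9 UMIs in all. The array on chromosome 11, chr11:99550130-99993994, has 20 members with 72 and 149 UMIs. Krtap3-3 and Krtap3-1 at its start held 133 UMIs, Krtap16-1 and Krtap17-1 at its end held 65, and the 15 members between, of which 10 are ultra-high sulfur, had 23. The members on chromosomes 7, 10 and 1 had 10, 6 and 2 UMIs.

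**Figure D2:**
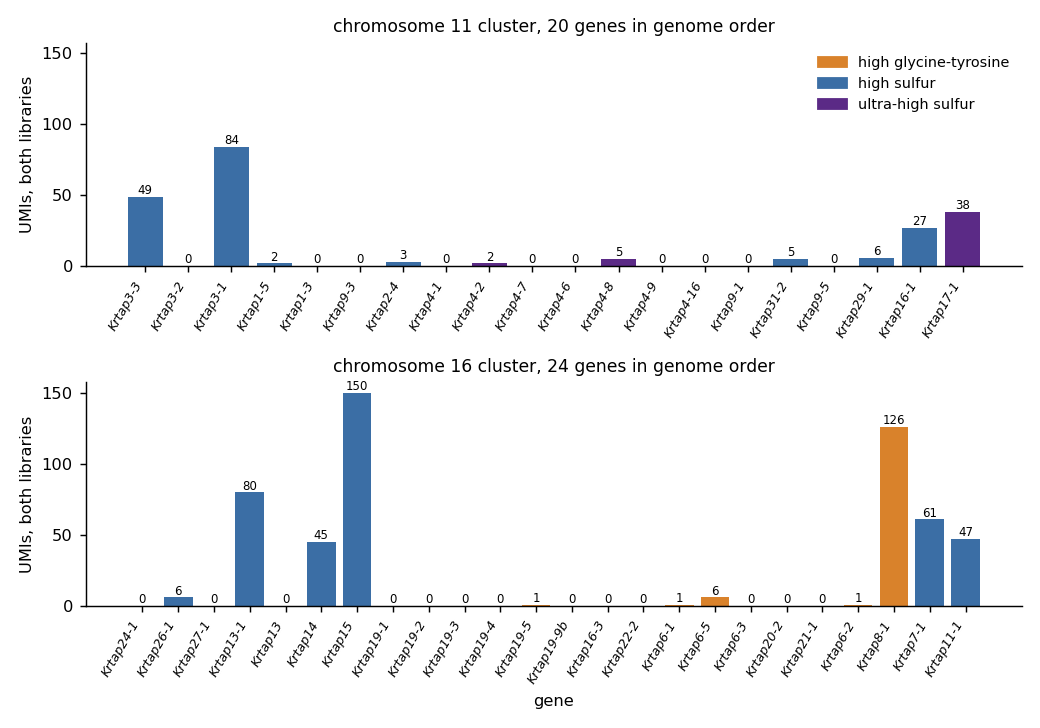
UMIs over both libraries for each member of the chromosome 11 and chromosome 16 arrays, as bars in genome order, with colours for the codon class and the count above each bar. The counts sit at both ends of the chromosome 11 array, and those of the chromosome 16 array lie mostly on either side of 14 high glycine-tyrosine members that had 9 UMIs in all.

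Close copies limit what a zero means here. Of the 17 members whose every 50-base transcript word is found in no other gene, 8 had at least 20 UMIs and 6 had none, and they held 76.9% of the UMIs. Of the 34 members that share words with another gene, 2 had at least 20 UMIs and 18 had none. Krtap3-2, with 0 UMIs, and Krtap3-3, with 49, have coding sequences that are 100% identical, so their counts are uncertain as a split between them. Krtap6-5 and Krtap6-1 are 97.9% identical. Among the 14 high glycine-tyrosine members inside the chromosome 16 array, 3 share no word with another gene (Krtap19-4, Krtap19-5 and Krtap22-2, named after their values were seen), with 1 UMI between them. The gene spans of Krtap14 and Krtap15 overlap by 5931 bases on opposite strands, at chr16:88820215-88826145, and no source used here says whether counting used the strand. How much shared sequence or the choice of probes bears on the zeros was not tested.

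Most members have a TATA element just before their start. The 60 bases before the start are shown for 6 of the 10 abundant members, from the RefSeq promoter table of GRCm38.p6, 5′ to 3′ on the gene's strand, because the detected and undetected members share this feature. Capitals mark TATAAA in the genes listed first and TATATAA in Krtap15 and Krtap14, which have no TATAAA in this window.
Krtap8-1 (chr16:89487953-89488012, minus strand): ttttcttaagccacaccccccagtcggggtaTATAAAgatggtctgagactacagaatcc
Krtap11-1 (chr16:89571184-89571243, minus strand): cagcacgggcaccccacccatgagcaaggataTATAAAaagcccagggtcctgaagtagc
Krtap3-1 (chr11:99566631-99566690, minus strand): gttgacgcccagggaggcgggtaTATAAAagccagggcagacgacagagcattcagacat
Krtap17-1 (chr11:99993995-99994054, minus strand): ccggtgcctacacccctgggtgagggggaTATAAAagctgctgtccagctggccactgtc
Krtap15 (chr16:88828949-88829008, plus strand): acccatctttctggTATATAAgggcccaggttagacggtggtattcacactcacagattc
Krtap14 (chr16:88826146-88826205, minus strand): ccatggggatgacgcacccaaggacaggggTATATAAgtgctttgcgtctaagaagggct

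The table held 46 of the 51 members. TATAAA, searched on the gene's strand within 50 bases of the start, was found in 30 of these 46 promoters, 65.2%, against 2.92% of the 27025 promoters of all genes. Searched on both strands over the whole 250 bases it was found in 78.3% and 12.9%. Within 50 bases it was in 5 of 9 members with at least 20 UMIs, 11 of 15 with 1 to 6 and 14 of 22 with none. With TATATAA added, a motif that can overlap TATAAA and was chosen after these sequences were seen, the counts were 8 of 9, 11 of 15 and 16 of 22, against 3.46% of all genes. Presence of the motif thus did not separate the detected from the undetected members.

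Krtap UMIs followed the hair follicle genes within the sections. Spots were placed in order of priority by at least 3 UMIs of a marker list: hair-shaft keratins (13 of 16 listed genes measured, such as Krt34 and Krt35), inner root sheath genes (8 of 9, such as Tchh and Krt71), suprabasal epidermis genes (7 of 7, such as Krt10), neural genes (7 of 7, such as Snap25), and all remaining spots. No gene named Krt33b, Krt85 or Krt86 is in the gene list used here, so these shaft keratins could not be counted. No Krtap gene was used to place a spot. A spot can hold several cell types, and fewer cells of a type cannot be told apart from less RNA per cell.

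Hair-shaft keratin spots were few, 28 of the flat spots, 1.04% (0.695 to 1.51), and 64 of the micropillar spots, 2.09% (1.61 to 2.66). In them the summed Krtap level was 4816 CPM (3931 to 5840) with the flat and 4739 CPM (4182 to 5348) with the micropillar implant. A Krtap UMI was found in 26 of the 28 and 57 of the 64. These spots held 42.7% (36.4 to 49.2) and 50.2% (45.8 to 54.6) of all Krtap UMIs. The share rests on the minimum of 3 keratin UMIs: with a minimum of 1 it was 70.5% and 69.5%, and with 10 it was 7.47% and 11.3%.

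Spots of the inner root sheath, the layer that moulds the growing shaft, gave the next level. The 127 flat spots of this group had 1405 CPM (1119 to 1742) of Krtap, and the 294 micropillar spots had 503 CPM (430 to 586), a ratio of 0.358 (0.274 to 0.472). The inner root sheath genes were also lower in those micropillar spots, 9666 against 31226 CPM. Neural genes were at 4847 against 373 CPM there. Set against inner root sheath UMIs, Krtap had 4.50 UMIs per 100 in the flat and 5.21 in the micropillar spots of this group. The part of these other RNAs in the lower CPM was not tested.

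In the other spot groups the Krtap level was far lower. Suprabasal epidermis spots had 70.5 CPM (25.9 to 154) and 109 CPM (64.4 to 172), and the remaining spots had 58.0 and 63.8 CPM. In neural spots, which mark a tissue that forms no hair, it was 16.5 CPM (11.1 to 23.8) and 23.6 CPM (17.7 to 30.8). The share of neural spots with a Krtap UMI was 2.13% and 2.80% at median depths of 1077 and 1089 UMIs, deeper than the 799 and 859.5 of hair-shaft keratin spots. After each spot was thinned to 250 UMIs, which left out 653 flat and 331 micropillar spots of lower depth, Krtap was found in 53.6% and 64.1% of hair-shaft keratin spots. It was then in 27.2% and 16.2% of inner root sheath spots, 1.97% and 1.92% of epidermis spots, and 0.772% and 0.679% of neural spots. Before thinning, neural spots held 19 and 59 shaft keratin UMIs and 95 and 408 inner root sheath UMIs. Their Krtap share is therefore not a measure of background alone.

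**Figure D3:**
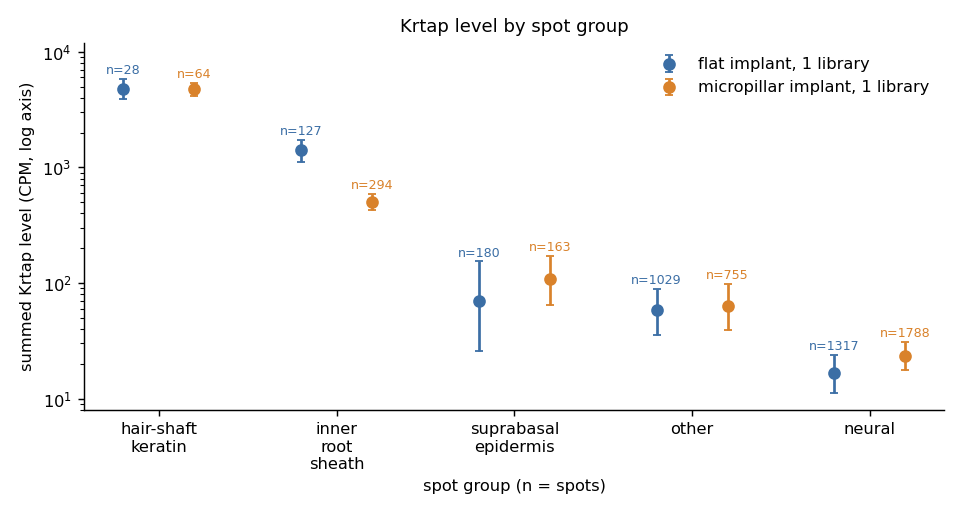
Summed Krtap level (CPM, log axis) in each spot group with exact 95% Poisson intervals, blue for the flat and orange for the micropillar library, n giving the spots. Hair-shaft keratin spots lie at 4816 and 4739 CPM, inner root sheath spots at 1405 and 503 CPM, and neural spots at 16.5 and 23.6 CPM.

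Spots with more hair-shaft keratin UMIs had more Krtap. In the flat library it was 32.8 CPM in spots with none, 858 CPM with 1 or 2, 4636 CPM with 3 to 9 and 5890 CPM (3491 to 9309) in the 3 spots with 10 or more. The micropillar library gave 54.8, 469, 4167 and 8971 CPM (6829 to 11572), the last from 6 spots. The share of spots with a Krtap UMI went from 2.48% over 33.3% and 92.0% to 3 of 3 spots in the flat library. In the micropillar library it went from 4.81% over 26.5% and 87.9% to 6 of 6 spots. Inner root sheath UMIs went up alongside, from 0.473 to 58.3 per spot and from 0.739 to 55.8 per spot.

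Read from the other side, 49.6% (40.5 to 58.7) of the 125 flat spots with a Krtap UMI also had a hair-shaft keratin UMI, against 2.90% of the flat spots without Krtap. In the micropillar library this was 44.7% (38.3 to 51.1) of 244 spots against 5.35%. Inner root sheath genes were found with Krtap more often than the shaft keratins were, in 72.8% and 80.7% of the Krtap spots against 12.1% and 27.2% of the others. They also had more UMIs, 3279 and 6832 against 277 and 593 for the shaft keratins, and the part of this in the share was not tested. Neural genes went the other way, in 39.2% and 56.6% of Krtap spots against 64.2% and 81.2% of the rest. Lists of other tissues did not all do so. Bone genes, with most UMIs from the collagen genes Col1a1 and Col1a2 that fibroblasts also express, were in 71.2% and 86.1% of Krtap spots against 46.1% and 55.5% of the rest. Suprabasal epidermis genes were in 38.4% and 45.1% against 19.8% and 32.3%. Dermal papilla genes mark the mesenchymal core of the bulb. They were in 0 of 125 flat Krtap spots, where 3 counts set a limit of 2.4%, against 2.07% of the others. In the micropillar library they were in 3.69% (1.70 to 6.89) of Krtap spots against 2.87%. Cell division genes were in 4.80% and 12.7% of Krtap spots against 1.60% and 1.91% of the others. After thinning to 250 UMIs they were in 0 of 68 flat Krtap spots, which allows up to 4.41%, against 1.07%, and in 8.11% of micropillar Krtap spots against 0.496%.

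Each abundant member could be followed in this way. Over both libraries 75.8% (65.7 to 84.2) of the 91 spots with Krtap8-1 also had a hair-shaft keratin, as did 74.6% of the 59 spots with Krtap13-1 and 63.4% of the 101 with Krtap15. Among the 10, 9 lay between 55.0% (Krtap14) and 75.8%. The exception was Krtap16-1, with 6 of 25 spots, 24.0% (9.36 to 45.1). An inner root sheath UMI was found in 56.0% of Krtap16-1 spots and in 85.0% to 96.6% of the spots of the other 9.

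Fewer Krtap16-1 UMIs lay with the shaft keratins, as far as 27 UMIs show. Of these 4 were in hair-shaft keratin spots, 14.8% (4.19 to 33.7), against 39.5% to 59.5% for the other 9 members. In the flat library 7 of its 11 UMIs were in neural spots, 63.6% (30.8 to 89.1), where 77.4% of the UMIs of all genes lay. In the micropillar library 2 of 16 were, 12.5% (1.55 to 38.3), against 72.2% of all UMIs, and 7 were in inner root sheath spots. Both follicle groups together held 62.5% of its micropillar UMIs and 18.2% of its flat UMIs, against 86.8% and 84.8% for the other 9 members and 12.2% and 3.55% for all genes. The 17 members with 1 to 6 UMIs had 3 of their 56 UMIs in hair-shaft keratin spots, 5.36% (1.1 to 14.9), and 24 in neural spots, 42.9% (29.7 to 56.8). The 10 abundant members had 51.2% (47.4 to 54.9) and 8.35% in those groups. All genes had 1.41% and 74.4% there. Low members were found in 19 and 36 spots, of which 4 and 8 also had an abundant member. Krtap16-1 and the low members were singled out after their values were seen.

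Krtap17-1, which encodes the cysteine-rich protein shown above, was split differently in each library. In the flat library 3 of its 20 UMIs were in hair-shaft keratin spots, 15% (3.21 to 37.9), and 14 were in inner root sheath spots. With the micropillar implant 12 of 18 were in hair-shaft keratin spots, 66.7% (41.0 to 86.7), and 5 in inner root sheath spots. This member too was picked after its values were seen.

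**Figure D4:**
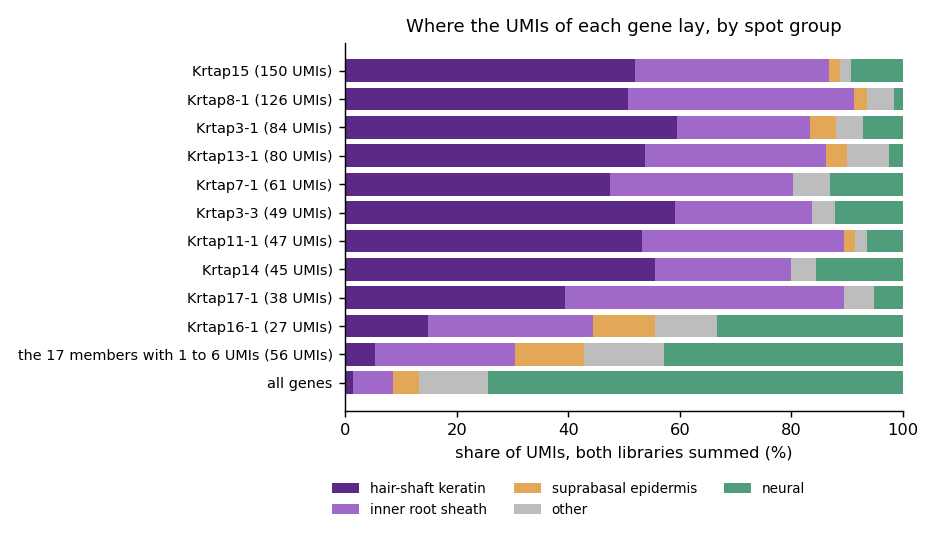
Share of UMIs (%, both libraries summed) in each spot group, as stacked bars for the 10 abundant members, the 17 low members together and all genes. Hair-shaft keratin and inner root sheath spots hold most UMIs of 9 members, but 44.4% of Krtap16-1 and 30.4% of the low members, against 8.60% for all genes.

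Levels inside and outside the hair-shaft keratin spots are given for the abundant members as a description, since UMIs in those spots counted towards the minimum of 20. Krtap15 had 1122 CPM in the hair-shaft keratin spots and 8.03 CPM elsewhere in the flat library, and 977 and 17.3 CPM in the micropillar library. Krtap3-1 had 421 against 4.01 CPM and 742 against 8.02 CPM. Krtap16-1 had 46.8 against 4.46 CPM and 54.3 against 4.17 CPM, from 1 and 3 UMIs inside those spots.

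The Krtap UMIs were concentrated in few spots. In the flat library 125 spots, 4.66% (3.90 to 5.53), had any, and in the micropillar library 244 spots, 7.96% (7.03 to 8.98). The top 1% of spots held 53.1% (46.6 to 59.5) of the UMIs in the flat library and 42.7% (38.4 to 47.1) in the micropillar library, where the top 1% by total UMIs held 4.30% and 5.18% of all UMIs. For the hair-shaft keratins this share was 50.5% and 41.2%, for the inner root sheath genes 41.5% and 32.2%, for the suprabasal epidermis genes 36.3% and 45.3%, and for the neural genes 6.34% and 6.18%. A set with few UMIs must occupy few spots, and the shaft keratins, with 277 and 593 UMIs, are the list nearest to Krtap in number. In all, 24 flat spots and 43 micropillar spots held 50% of the Krtap UMIs.

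The richest spots held several members at once. The highest micropillar spot had 35 Krtap UMIs, of which Krtap15 gave 14, Krtap3-1 7, Krtap13-1 5 and 4 further members the rest, beside 8 UMIs of Krt34 and 3 of Krt33a. The highest flat spot had 15 Krtap UMIs from 7 members, led by Krtap15 and Krtap8-1 with 4 each, beside 3 of Krt87. Most Krtap spots were sparser: 88 flat and 165 micropillar spots had a single member. The commonest pair was Krtap15 with Krtap8-1, in 27 spots, which is 26.7% of the Krtap15 spots and 29.7% of the Krtap8-1 spots.

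**Figure D5:**
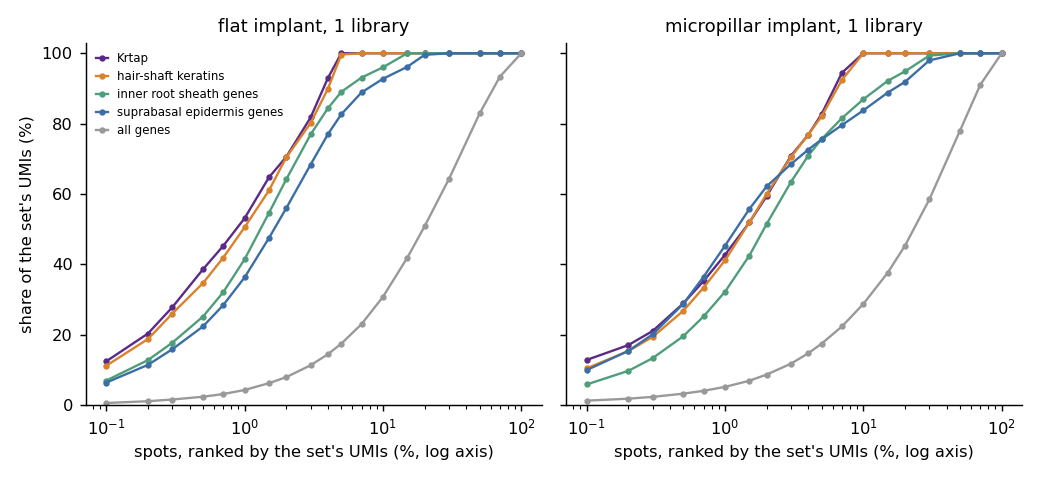
Cumulative share of UMIs (%) against the share of spots (%, log axis), spots ranked for each set by that set's own UMIs, for each library. The Krtap and hair-shaft keratin curves run close together and reach 100% at 5 to 10% of spots, and the curve for all genes lies far to the right.

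Between the libraries, the summed Krtap level was 106 CPM (93.5 to 121) with the flat implant, from 241 UMIs, and 164 CPM (151 to 179) with the micropillar implant, from 522. The ratio was 1.54 (1.32 to 1.81). Lists of other skin and follicle genes ranged on both sides of this. Other hair-shaft genes had a ratio of 1.75 (1.52 to 2.01), the hair-shaft keratins 1.53 (1.32 to 1.77), the inner root sheath genes 1.49 (1.43 to 1.55) and the companion layer, outer root sheath and basal keratins 1.42 (1.35 to 1.5). Lower ratios were found for dermal papilla genes at 1.25 (0.890 to 1.77), follicle transcription factors at 1.21 (1.08 to 1.36), melanocyte genes at 1.1 (0.759 to 1.60) and sebaceous gland genes at 1.07 (0.936 to 1.23). Per hair-shaft keratin UMI there were 0.870 (flat) and 0.880 (micropillar) Krtap UMIs. Suprabasal epidermis genes had a ratio of 0.910. The number of hair-shaft keratin spots went from 28 to 64, while within them the Krtap ratio was 0.984 (0.781 to 1.25). That last value depends on how the spots are set: with 10 keratin UMIs or more, 3 against 6 spots, the log2 ratio was 0.61, and with 1 or more it was −0.35. How much follicle each section happened to include cannot be told apart from the implant.

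Among single members, 10 had the 20 UMIs over both libraries that were required for a comparison. Their ratio was above 1 for 9, where 56.8% of the 12151 genes that passed this minimum had a ratio above 1. The whole interval lay above 1 for 3, where it did for 13% of genes. It lay below 1 for 0 of the 10, where it did for 9.07% of genes. Krtap11-1 went from 3.98 CPM (1.82 to 7.55) to 11.97 CPM (8.47 to 16.4), a ratio of 3.01 (1.43 to 7.08). Krtap3-1 went from 7.95 CPM (4.71 to 12.6) to 20.8 CPM (16.1 to 26.5), a ratio of 2.61 (1.53 to 4.68). Krtap15 went from 18.6 CPM (13.4 to 25.1) to 34.0 CPM (27.9 to 41.1), a ratio of 1.83 (1.27 to 2.69). Intervals of the other 7 included 1, from Krtap3-3 at 1.78 (0.935 to 3.59) to Krtap17-1 at 0.642 (0.320 to 1.28), the only ratio under 1. Krtap8-1 had 1.28 (0.881 to 1.89).

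At least 2-fold higher on the scale of log2(CPM + 1) were 2 of the 10, Krtap11-1 and Krtap3-1, where 2.44% of the genes compared were. None was at least 2-fold lower, where 1.16% of genes were. The median log2 ratio was 0.58 for the 10 members and 0.06 for all genes tested. With a pseudocount of 5 CPM, the log2 ratios were 0.92 for Krtap11-1 and 0.99 for Krtap3-1, and neither reached 2-fold. Inside the hair-shaft keratin spots, where 8 members could be compared, none was 2-fold higher or lower, against 8.24% and 4.05% of 716 genes. Krtap11-1 had a ratio of 1.23 (0.470 to 3.75) there, from 6 and 19 UMIs. Krtap3-1 had 1.76 (0.844 to 4.12) and Krtap15 0.870 (0.529 to 1.47). Log2 ratios of other members also changed sign there, with intervals that included a ratio of 1. They were −0.63 for Krtap8-1 (ratio 0.645, 0.379 to 1.12) and −0.87 for Krtap7-1 (ratio 0.548, 0.247 to 1.26). Krtap17-1 was at 0.63 (ratio 1.55, 0.418 to 8.54), from 3 and 12 UMIs, under the minimum of 20 for a comparison.

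By class, the high sulfur members had a ratio of 1.76 (1.46 to 2.12), the high glycine-tyrosine members 1.26 (0.889 to 1.81) and the ultra-high sulfur members 0.768 (0.434 to 1.36). The difference between classes was not tested. Leaving out the spot with most Krtap UMIs in each library gave a Krtap3-1 ratio of 2.48 (1.42 to 4.53) and a Krtap15 ratio of 1.76 (1.20 to 2.64). Krtap11-1, which had at most 2 UMIs in any spot, stayed at 3.01. Krtap3-3, at 2.20 (1.09 to 4.82), then had an interval above 1. Without the 10 spots with most Krtap UMIs in each library, Krtap8-1 had a ratio of 1.83 (1.16 to 2.98), so its interval also moved above 1.

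Transcription factors of the hair follicle were measured beside the members. Foxn1, the gene inactivated in nude mice, had 1 UMI (flat) and 6 UMIs (micropillar). Hoxc13, which acts on shaft keratin genes, had 42 and 85, a CPM ratio of 1.44 (0.986 to 2.14). Msx2 had 30 and 77, a ratio of 1.83 (1.19 to 2.89). Lef1 had 17 and 54, a ratio of 2.27 (1.29 to 4.17), and Dlx3 had 9 and 29, a ratio of 2.30 (1.06 to 5.52). Gata3, the listed follicle transcription factor with most UMIs, had 162 and 242, a ratio of 1.07 (0.870 to 1.31). Prdm1, with 67 and 93 UMIs, and Vdr, with 44 and 48, had log2 ratios below 0. Of the 11 listed follicle transcription factors with at least 20 UMIs, 9 had a log2 ratio above 0, against 56.8% of all genes compared, and 2 were at least 2-fold higher, against 2.44%. Their median log2 ratio was 0.41, and that of all genes was 0.06.

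The genes that varied most like the summed Krtap level from spot to spot were ranked by Pearson's r, on log2 of counts per 10000 plus 1, by the lower of both libraries among 9961 genes. Prr9 came first with r of 0.55 in 2681 flat spots and 0.51 in 3064 micropillar spots. Tchh, which encodes trichohyalin, had 0.52 and 0.51. Krt75, a keratin of the companion layer, had 0.50 and 0.52. The inner root sheath keratins Krt71, Krt26, Krt27, Krt28 and Krt25 followed, with r from 0.48 to 0.53. Padi3, which encodes an enzyme that converts arginine to citrulline in hair proteins, had 0.46 and 0.44, and Ly6g6g, Krt83 and Sprr1a completed the 12. Krt83 was the only shaft keratin among them, at 0.41 and 0.40. Spots share a library and differ in depth, so these values are descriptions. Tchh had 1663 and 3509 UMIs against 45 and 86 for Krt83, and the part of abundance in r was not tested.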

How the data were processed

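The authors deposited unnormalised UMI counts, a gene by spot matrix for each of 2 libraries. Space Ranger 2.0.1 made them, per the file headers. Cell Ranger 7.2.0 and the mm10 build are named by the submitters' processing notes. No source used here gives the probe set, the aligner settings or the counting strand. Of the feature identifiers, 19451 matched GENCODE M21. Columns of other samples numbered 0. Spots under 100 UMIs were left out; they held 1 and 3 Krtap UMIs. Counts were summed over spots and scaled to CPM, and log2 ratios used a pseudocount of 1 CPM. Intervals are exact Poisson for CPM, and Clopper-Pearson for shares and ratios of counts. Protein classes were set from codon shares, since no protein sequences were used here.

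Members, lists and rules were chosen with earlier results of these data known. Named members were the 15 with most UMIs, the leader of each subfamily and the extreme ratios. Alternatives covered scaling, depth, pseudocount, minimum UMIs and spot definition. The procedure was tested on simulated data. Software was Python 3.11.15, numpy 2.4.6, scipy 1.17.1, pandas 2.3.3, Biopython 1.88, matplotlib 3.10.9, R 4.3.3, edgeR 4.0.16 (TMM factors) and DESeq2 1.42.0 (size factors).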

Additional observations from a re-analysis of the deposited data

How the results depend on the processing

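The summed Krtap log2 ratio of 0.62 lay between 0.56 and 0.81 under 10 alternatives. It was −0.023 when only hair-shaft keratin spots were used. Krtap15 also turned there, to −0.20. So did 3 members whose intervals include a ratio of 1, Krtap8-1 to −0.63, Krtap7-1 to −0.87 and Krtap17-1 to 0.63. Krtap11-1 moved from 1.38 to 0.29 in those spots. The count of members at least 2-fold higher, 2 as reported, was 0 with a pseudocount of 5 CPM, 0 in hair-shaft keratin spots and 1 among members with at least 50 UMIs. The count lower stayed 0 in 13 alternatives. The share of Krtap UMIs in hair-shaft keratin spots was 51.7% in the flat library with spots of at least 500 UMIs, 70.5% and 69.5% (flat and micropillar) with 1 keratin UMI, 7.47% and 11.3% with 10, and 16.7% and 19.2% after thinning to 250 UMIs, which thins the keratins that place the spots too. It was 41.2% in the micropillar library where the keratins had to be 0.5% of a spot. Thinning moved the top 1% share of the micropillar library to 50.3%. The Krtap log2 ratio within hair-shaft keratin spots, an addition made after the data were seen, was 0.61 with 10 keratin UMIs or more. Krtap per keratin UMI stayed between −0.10 and 0.04 (log2) in 6 alternatives. No paired analysis was possible because each group had 1 library, and no replicate could be left out. Members with 1 to 6 UMIs are limited by depth.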

Other observations

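Some Krtap UMIs lay in spots without markers of the shaft, the inner root sheath or the epidermis. Spots with no UMI of the hair-shaft keratins, the inner root sheath genes or the suprabasal epidermis genes held 26 flat and 27 micropillar Krtap UMIs, 10.8% and 5.17% of the totals. Other follicle lists were not used to leave spots out. The level there was 16.9 CPM (11.0 to 24.7) and 18.5 CPM (12.2 to 26.9), in 1.31% and 1.74% of such spots. Spots with inner root sheath genes at 3 UMIs or more and no shaft keratin had 703 CPM (455 to 1038) and 340 CPM (266 to 429).

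Melanocyte genes, which mark the pigment cells of the follicle, were found in 12% (6.87 to 19.0) of flat Krtap spots against 0.978% of the others, and in 11.5% (7.76 to 16.2) against 1.06% in the micropillar library. Sebaceous gland genes were in 22.4% against 8.14% and in 26.6% against 10.5%. Of the UMIs of this list, Scd1 gave 294 of 350 (flat) and 411 of 527 (micropillar), and Awat2 had none. The part of Scd1 in these shares was not tested.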
